A study of Homo sapiens with 10 samples.

Results

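The 9 genes described here encode enzymes of asparagine, proline, arginine and cysteine synthesis and of the aspartate, alanine and phosphoenolpyruvate reactions beside them. They are ASNS, PYCR1, ALDH18A1, ASS1, CTH, CBS, GPT2, GOT1 and PCK2. They were chosen by name, as the rows of the deposited table that carry these symbols, and all 9 were found among its 16734 genes. All 9 were also among the 9150 genes that passed the filter for testing, which asked for at least 1 FPKM (a fragment number divided by gene length and library size) in at least 5 libraries, and each of them was above 1 FPKM in every library of both groups.

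The cells were MIA PaCa-2, an established human line from a pancreatic ductal adenocarcinoma. In the treated group, 5 libraries came from cells given 10 µM hydroxyprogesterone caproate (HPC), a synthetic progestin, for 24 h. In the vehicle group, 5 libraries came from cells given the same volume of DMSO, the solvent, for 24 h. Both groups were grown in DMEM with fetal bovine serum, so the comparison is of 1 line at 1 dose and 1 time. Replicates are described by the labels as biological, with no culture day named, so every p-value is set by the spread among these 10 libraries.

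Cells make the non-essential amino acids from a few carbon skeletons: oxaloacetate gives aspartate and asparagine, glutamate gives proline, pyruvate gives alanine, and serine with homocysteine gives cysteine through transsulfuration. Many genes of these routes are known targets of ATF4, a transcription factor whose translation increases when the kinases of the integrated stress response phosphorylate the initiation factor eIF2. ATF4 pairs with C/EBP proteins on a composite DNA element, the C/EBP-ATF response element. Pancreatic cancer cells are known for their use of glutamine through cytosolic aspartate transamination, the GOT1 step.

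With HPC, 8 of the 9 enzymes were higher and 1, ALDH18A1, was lower (limma on log2(FPKM + 0.1), adjusted p under 0.05). Of all tested genes, 42.9% were called higher and 44.8% lower, 87.7% in all, so a call by itself was common. By size, 5 of the 9 enzymes were at least 2-fold higher, against 7.54% of all tested genes, and 3 were at least 4-fold higher, against 1.99%. The median log2 fold change of the 9 was 1.25, beside -0.01 over all tested genes. These contrasts are descriptions, as the enzymes were chosen with earlier results of these data known. Values of the HPC and DMSO libraries did not overlap for any of the 9, which was also the case for 79.6% of all tested genes. RNA was measured in bulk as a share of each library, so amounts per cell, and fewer cells as against less RNA per cell, cannot be told apart.

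**Figure D1:**
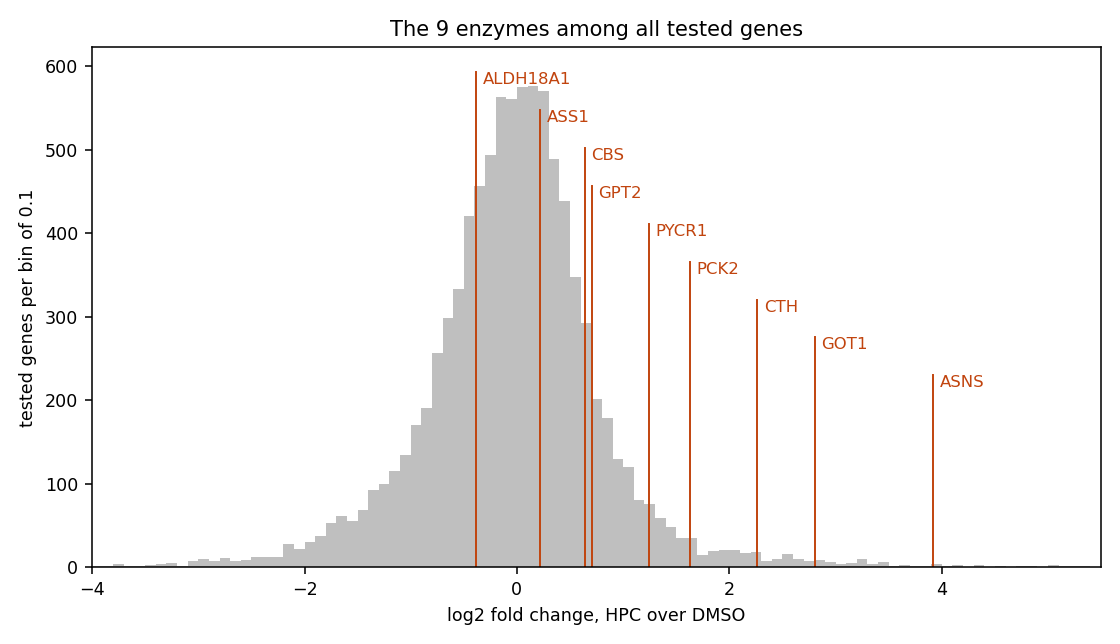
Histogram of the log2 fold change, HPC over DMSO, of the 9150 tested genes in bins of 0.1 (gray), with a labelled line at each of the 9 enzymes; line heights carry no value. ASNS, GOT1 and CTH stand above 2, while ALDH18A1, ASS1, CBS and GPT2 lie between -0.38 and 0.71.

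The libraries held between 65851927 and 74477678 recovered reads with HPC and between 71603127 and 82219086 with DMSO. Mitochondrially encoded genes took 14.8% ± 0.717 of the summed FPKM with HPC and 22.6% ± 0.704 with DMSO (SD, n = 5 each; exact two-sided permutation p = 0.00794, the smallest possible, adjusted p = 0.0238 over 3 library measures). The line's keratins KRT8, KRT18 and KRT19 summed with KRT7 and EPCAM to between 213 and 229 FPKM with HPC and between 182 and 199 FPKM with DMSO, while EPCAM was under 0.1 FPKM in every library. KRT8 and KRT18 were higher in all HPC libraries, but KRT19 lay between 8.71 and 11.2 FPKM with HPC and between 22.2 and 26.6 FPKM with DMSO, and KRT7 between 0.00366 and 0.0663 FPKM with HPC and between 0.177 and 0.264 FPKM with DMSO. The mesenchymal marker VIM lay between 322 and 346 FPKM with HPC and between 682 and 718 FPKM with DMSO. Summed markers of other cell types moved as well. The 5 fibroblast markers summed to between 0.762 and 1.05 FPKM with HPC and between 24.5 and 26.7 FPKM with DMSO, nearly all of it COL1A2, and DCN, LUM, COL1A1 and PDGFRB were under 0.1 FPKM throughout. The 3 measured endothelial markers summed to between 0.0152 and 0.0368 FPKM with HPC and between 1.43 and 1.53 FPKM with DMSO, of which CDH5 was the main part, with PECAM1 and VWF under 0.1 FPKM. Leukocyte markers (2 of 3 measured) summed to between 0.00183 and 0.121 FPKM with HPC and between 0.394 and 0.567 FPKM with DMSO, and PTPRC was under 0.1 FPKM. Acinar markers (2 of 6 measured) summed to between 0.274 and 0.498 FPKM with HPC and between 0.0237 and 0.0679 FPKM with DMSO, and islet markers (2 of 4 measured) to at most 0.0108 FPKM. The part of these differences in the results on the enzymes was not tested.

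Asparagine is made by ASNS (asparagine synthetase), which moves the amide nitrogen of glutamine onto aspartate. The gene, ENSG00000070669, lies on the minus strand of chromosome 7 between 97852118 and 97872542 (GENCODE 29, GRCh38). Its RNA stood at 51.1, 49.0, 53.6, 52.2 and 51.7 FPKM in the 5 HPC libraries, against 3.79, 3.46, 3.11, 3.19 and 3.05 FPKM in the 5 DMSO libraries. The lowest HPC library was far above the highest DMSO library. The log2 fold change was 3.92 ± 0.052 (SE; limma, Benjamini-Hochberg adjusted p = 2.47e-15), 15.1-fold, and 99.7% of the tested genes had a smaller one. Between 76440 and 91114 reads with HPC and between 4987 and 6423 with DMSO lay behind these values. Another gene of GENCODE 29 shares 1985 of the 4455 exon bases of ASNS on the same strand, and 4 ASNS pseudogenes are annotated. Some reads could belong to any of these.

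Aspartate, the substrate of ASNS, is interconverted with oxaloacetate by the aspartate aminotransferases, GOT1 in the cytosol and GOT2 in mitochondria. GOT1 (ENSG00000120053, minus strand of chromosome 10 between 99396870 and 99431569) had 145, 140, 136, 132 and 131 FPKM in the HPC libraries, against 21.1, 18.2, 19.0, 20.3 and 19.0 FPKM in the DMSO libraries. The groups were widely apart, with a log2 fold change of 2.80 ± 0.04 (limma, adjusted p = 4.12e-15), 6.99-fold. Another gene, on the opposite strand, covers 651 of the 3369 exon bases of GOT1, and the strandedness of the counting is not given in the sources used here. GOT2 moved the other way, at 26.4 ± 0.751 FPKM with HPC and 37.1 ± 0.755 FPKM with DMSO (SD, n = 5 each; log2 fold change -0.49 ± 0.025, limma adjusted p = 4.64e-10). The ratio of GOT1 to GOT2 within a library, computed like all ratios here with 0.1 FPKM added to each gene, was between 4.9 and 5.56 with HPC and between 0.502 and 0.56 with DMSO. That is a difference of 3.29 ± 0.0518 on the log2 scale (SE; exact two-sided permutation test, p = 0.00794, adjusted p = 0.0106 over 4 tested pairs), with all 5 HPC libraries above all 5 DMSO libraries.

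The promoters of ASNS and GOT1 are shown because, of the 7 enzymes with an entry in the RefSeq promoter table (GRCh38.p14), these were the ones that held the core of the C/EBP-ATF response element, TGATGNAA, on either strand. Each sequence is 30 bases on the gene's strand, with the match in capitals; in GOT1 the motif reads on the opposite strand.
ASNS, chr7:97872458-97872487, minus strand: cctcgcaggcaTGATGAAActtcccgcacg
GOT1, chr10:99430804-99430833, minus strand: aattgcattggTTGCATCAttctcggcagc
In ASNS the match lay 68 to 61 bases before the RefSeq start, and in GOT1 it lay 198 to 191 bases before it. The 7 enzymes had 11 promoters in the table, of which 2 held this core, beside 3.62% of all 35116 promoters. Counted by gene, 2.41% of 7513 tested genes with a promoter had a match. A match describes letters and does not show that a factor was bound in these cells.

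GPT2, the mitochondrial alanine aminotransferase, makes alanine and α-ketoglutarate from pyruvate and glutamate. It lies on the plus strand of chromosome 16 between 46884378 and 46931297 (ENSG00000166123). Its level was 4.96, 5.48, 5.99, 5.96 and 5.42 FPKM in the HPC libraries, against 3.53, 3.29, 3.47, 3.19 and 3.31 FPKM in the DMSO libraries. The groups were separate but closer than for ASNS and GOT1, and the log2 fold change was 0.71 ± 0.05 (limma, adjusted p = 1.43e-08), 1.63-fold. Its cytosolic counterpart GPT was below the filter in these cells. GPT lay between 0.0275 and 0.0677 FPKM with HPC and between 0.0522 and 0.103 FPKM with DMSO (16 to 63 reads). The ratio of GPT2 to GPT, with 0.1 FPKM added, was between 35.5 and 43.8 with HPC and between 16.2 and 23.8 with DMSO. The added 0.1 FPKM makes up much of the denominator, so these ratios understate those of the FPKM.

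Of 11 genes of aspartate, asparagine and glutamine metabolism in the table, 7 were tested, with a median log2 fold change of 0.71. Over all tested genes, 42.9% were called higher and 44.8% lower. Of these 7 genes, 4 were higher and 3 were lower. The higher ones were ASNS, GOT1, GPT2 and BCAT1, the cytosolic branched-chain aminotransferase. BCAT1 stood at 2.61 ± 0.213 FPKM with HPC and 0.462 ± 0.0555 FPKM with DMSO (log2 fold change 2.27 ± 0.074, limma adjusted p = 4.76e-12), and passed the filter through its HPC libraries alone. Like GPT2 among the higher genes, the 3 lower ones were all mitochondrial enzymes. Beside GOT2 they were the branched-chain aminotransferase BCAT2 (-0.78 ± 0.033, limma adjusted p = 6e-11) and the glutamate dehydrogenase GLUD1 (-0.43 ± 0.031, limma adjusted p = 1.67e-08). Over the 6 genes with at least 1 FPKM in every library of both groups, which leaves out BCAT1, 3 were higher and 3 lower, with a median of 0.14. Among all 7872 tested genes at that level, 3464 were higher and 3374 lower. The asparaginase ASRGL1 and the glutamine synthetase GLUL lay below the filter; without it their log2 fold changes were -0.49 (limma adjusted p = 1.54e-05) and 0.46 (limma adjusted p = 1.1e-05).

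Proline is made from glutamate in 2 enzymatic steps. ALDH18A1, of the first step, and PYCR1, of the last, moved in opposite directions, while PYCR3, also of the last step and below the filter, was lower. ALDH18A1 encodes the first enzyme, Δ1-pyrroline-5-carboxylate synthase, and lies on the minus strand of chromosome 10 between 95605929 and 95656706 (ENSG00000059573). It had 12.4, 11.9, 12.6, 12.3 and 11.8 FPKM in the HPC libraries, against 15.2, 15.5, 16.5, 16.3 and 16.5 FPKM in the DMSO libraries. Every HPC library was lower than every DMSO library, and the log2 fold change was -0.38 ± 0.031 (limma, adjusted p = 5.54e-08), 0.766-fold. It was the only one of the 9 enzymes to fall, and 28.8% of all tested genes had a lower fold change.

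PYCR1 encodes the last enzyme of the route, a mitochondrial pyrroline-5-carboxylate reductase, and lies on the minus strand of chromosome 17 between 81932384 and 81942412 (ENSG00000183010). It had 9.96, 10.8, 11.4, 9.84 and 10.6 FPKM in the HPC libraries, against 4.32, 4.31, 4.39, 4.39 and 4.38 FPKM in the DMSO libraries. The DMSO libraries were nearly equal and the HPC libraries more spread, with no overlap. The log2 fold change was 1.25 ± 0.037 (limma, adjusted p = 2.06e-12), 2.37-fold. Exons of MYADML2 on the same strand share 408 of the 2886 exon bases of PYCR1, and an antisense gene shares 450.

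PYCR3, a cytosolic pyrroline-5-carboxylate reductase, was below the filter, at 0.464 ± 0.0473 FPKM with HPC and 1.04 ± 0.0557 FPKM with DMSO, and without the filter its log2 fold change was -1.02 (limma adjusted p = 7.58e-08). The ratio of PYCR1 to PYCR3, on values with 0.1 FPKM added, was between 17.6 and 20.6 with HPC and between 3.68 and 4.11 with DMSO, and did not overlap between the groups.

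The enzymes that break proline down or feed the same intermediate from ornithine were lower. ALDH4A1, which oxidizes the intermediate back to glutamate, had 3.36 ± 0.0965 FPKM with HPC and 6.87 ± 0.11 FPKM with DMSO (-1.01 ± 0.028, limma adjusted p = 1.17e-12). OAT, the ornithine aminotransferase, had 20.1 ± 0.339 FPKM with HPC and 33.8 ± 0.538 FPKM with DMSO (-0.75 ± 0.021, limma adjusted p = 1.28e-12). PRODH, the proline dehydrogenase that opens the breakdown route, was below the filter, at 0.0322 to 0.0649 FPKM (67 to 129 reads) with HPC and 0.545 to 0.84 FPKM (1221 to 1867 reads) with DMSO. Without the filter its log2 fold change was -2.48 (limma adjusted p = 2.29e-09), a value that the added 0.1 FPKM makes smaller than the ratio of the reads. The ratio of PYCR1 to PRODH, with 0.1 FPKM added, was between 60.3 and 82.0 with HPC and between 4.77 and 6.85 with DMSO. Although ALDH18A1 was lower, its ratio to ALDH4A1 was higher with HPC, between 3.38 and 3.79, against 2.14 to 2.4 with DMSO (log2 difference 0.63 ± 0.0418, exact permutation p = 0.00794, adjusted p = 0.0106). Of 4 tested genes of the proline and ornithine list, PYCR1 was higher and 3 were lower, and the median log2 fold change was -0.57. Over all tested genes, 42.9% were called higher and 44.8% lower.

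The promoter of ALDH18A1 is shown as that of the enzyme that fell; it held none of the 4 motifs searched. The 150 bases end just before the RefSeq start.
ALDH18A1, chr10:95656712-95656861, minus strand: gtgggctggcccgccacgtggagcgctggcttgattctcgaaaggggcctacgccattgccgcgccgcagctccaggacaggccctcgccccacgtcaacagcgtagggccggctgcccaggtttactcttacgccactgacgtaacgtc

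**Figure D2:**
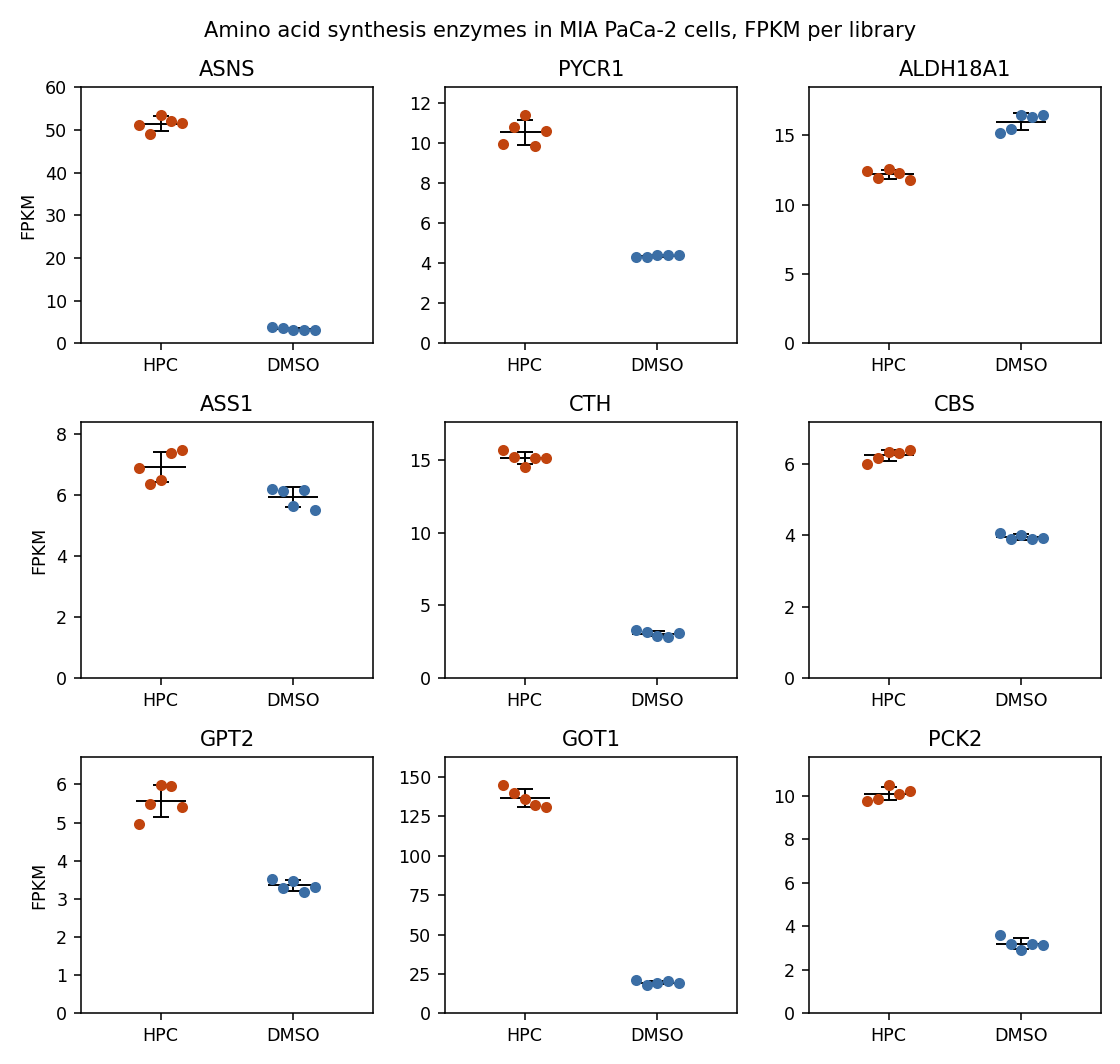
FPKM of each of the 9 enzymes in the 5 HPC libraries (left, orange) and the 5 DMSO libraries (right, blue), 1 point per library, with the mean and SD in black and every axis starting at 0. The HPC and DMSO points do not overlap for any enzyme; ALDH18A1 is the one with lower HPC values, and ASS1 has the narrowest gap.

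Arginine is made from citrulline by ASS1, the argininosuccinate synthase, and then ASL, the argininosuccinate lyase. ASS1 (ENSG00000130707, plus strand of chromosome 9 between 130444929 and 130501274) had 6.87, 6.34, 6.49, 7.36 and 7.47 FPKM in the HPC libraries, against 6.19, 6.12, 5.63, 6.15 and 5.49 FPKM in the DMSO libraries. The groups did not overlap, but the lowest HPC library lay just above the highest DMSO library. The log2 fold change was 0.22 ± 0.052 (limma, adjusted p = 0.00144), 1.16-fold, the smallest in size of the 9. When mitochondrially encoded genes were left out of the sum to which FPKM is scaled, it was 0.05 (limma adjusted p = 0.346), so the call for ASS1 rested on the scaling. GENCODE 29 lists 11 pseudogenes of ASS1, which may share reads with it.

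ASL had a similarly small difference, with 5.07 ± 0.472 FPKM in HPC and 4.29 ± 0.244 FPKM in DMSO libraries, and the groups overlapped (0.23 ± 0.061, limma adjusted p = 0.00281). On the values rescaled without mitochondrial genes, ASL was at 0.07 (limma adjusted p = 0.295). The ratio of ASS1 to ASL lay between 1.14 and 1.65 with HPC and between 1.21 and 1.55 with DMSO, a log2 difference of -0.01 ± 0.119 (exact permutation p = 0.905, adjusted p = 0.905 over 4 pairs), so no shift between these steps was detected. The larger differences of the arginine list were outside synthesis from citrulline. ARG2, the mitochondrial arginase that splits arginine into ornithine and urea, was at 13.8 ± 0.71 FPKM with HPC and 3.28 ± 0.632 FPKM with DMSO (2.06 ± 0.11, limma adjusted p = 6.26e-09). CPS1, which makes carbamoyl phosphate for the urea cycle, was at 0.355 ± 0.0415 FPKM with HPC and 1.36 ± 0.0604 FPKM with DMSO (-1.69 ± 0.066, limma adjusted p = 3.18e-11). Only 4 of the 11 arginine genes in the table passed the filter, of which 3 were higher and 1, CPS1, which passed through its DMSO libraries alone, was lower. Over all tested genes, 42.9% were called higher and 44.8% lower. ARG1, OTC, NAGS, AGMAT and the 3 nitric oxide synthases did not pass.

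Cysteine is made from homocysteine in the transsulfuration route, by CBS (cystathionine β-synthase) and then CTH (cystathionine γ-lyase). CTH (ENSG00000116761, plus strand of chromosome 1 between 70411218 and 70439851) had 15.7, 15.2, 14.5, 15.1 and 15.1 FPKM in the HPC libraries, against 3.31, 3.21, 2.89, 2.84 and 3.11 FPKM in the DMSO libraries. All HPC libraries were more than 4-fold above all DMSO libraries. The log2 fold change was 2.26 ± 0.042 (limma, adjusted p = 3.1e-14), 4.8-fold, and 98.5% of the tested genes had a smaller one.

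CBS (ENSG00000160200, minus strand of chromosome 21 between 43053191 and 43076943) had 5.98, 6.16, 6.32, 6.3 and 6.39 FPKM in the HPC libraries, against 4.05, 3.9, 4.01, 3.88 and 3.92 FPKM in the DMSO libraries. Its spread within each group was small, and the log2 fold change was 0.64 ± 0.028 (limma, adjusted p = 9.18e-11), 1.56-fold. A near-identical copy, CBSL, is also on chromosome 21 in this build, and reads may have been split between the pair. The copy stood at 7.71 ± 0.269 FPKM with HPC and 5.05 ± 0.0814 FPKM with DMSO, and the sum of both had a log2 fold change of 0.62 ± 0.026 (limma adjusted p = 6.58e-11). The direction was the same for CBS, its copy and their sum, which are not independent measures if reads were split between the pair. The level of CBS alone is uncertain.

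The ratio of CTH to CBS was between 2.27 and 2.6 with HPC and between 0.728 and 0.829 with DMSO, a log2 difference of 1.62 ± 0.0511 (exact permutation p = 0.00794, adjusted p = 0.0106). With the copy added to CBS, the ratio was between 1.01 and 1.18 with HPC and between 0.325 and 0.37 with DMSO, a log2 difference of 1.64. The second gene of the route thus moved further than the first on either reckoning. Which of the pair stood higher depended on the gene length used. With FPKM rescaled to the longest coding transcript, CTH was below CBS in both groups. It was at 47.5 ± 1.35 against 53.9 ± 1.39 with HPC, and at 9.65 ± 0.64 against 34.2 ± 0.657 with DMSO.

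Around these enzymes, 11 of 17 genes of methionine and cysteine metabolism were tested: 3 were higher, 6 were lower and 2 were not called, with a median log2 fold change of -0.16. Over all tested genes, 42.9% were called higher and 44.8% lower. CTH and CBS were joined on the higher side by MTRR, which reactivates methionine synthase (0.39 ± 0.043, limma adjusted p = 1.44e-06). Upstream of CBS, MAT2A and MAT2B, the catalytic and regulatory subunits of the methionine adenosyltransferase of non-hepatic cells, were not called, at 0.02 (limma adjusted p = 0.504) and -0.01 (limma adjusted p = 0.587), and AHCY, which releases homocysteine, was at -0.16 ± 0.019 (limma adjusted p = 3.37e-06). On the values rescaled without mitochondrial genes, MAT2A was called lower, at -0.15 (limma adjusted p = 7.7e-05), and so was MAT2B, at -0.18 (limma adjusted p = 1.25e-05), while AHCY was at -0.33 (limma adjusted p = 1.4e-09) and MTRR at 0.23 (limma adjusted p = 0.000241).

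The other lower genes of this list serve methionine synthesis, sulfur transfer or sulfide oxidation. They were MTR, the methionine synthase (-0.41 ± 0.034, limma adjusted p = 6.21e-08), MPST, the mercaptopyruvate sulfurtransferase (-0.47 ± 0.055, limma adjusted p = 2.71e-06), TST, the thiosulfate sulfurtransferase (-0.33 ± 0.05, limma adjusted p = 3.16e-05), ETHE1, the persulfide dioxygenase (-0.37 ± 0.044, limma adjusted p = 2.65e-06), and SQOR. SQOR, the sulfide quinone oxidoreductase that opens sulfide oxidation in mitochondria, had the lowest fold change of the tested genes of the list, at 1.68 ± 0.15 FPKM with HPC and 3.4 ± 0.239 FPKM with DMSO (-0.98 ± 0.063, limma adjusted p = 4.95e-09). SUOX, the mitochondrial sulfite oxidase, was below the filter, and without it was at -1.42 (limma adjusted p = 4.73e-09).

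The promoter of CTH is shown because CTH rose more than 4-fold and its window held none of the 4 motifs searched; the 150 bases end 51 bases before the RefSeq start.
CTH, chr1:70411068-70411217, plus strand: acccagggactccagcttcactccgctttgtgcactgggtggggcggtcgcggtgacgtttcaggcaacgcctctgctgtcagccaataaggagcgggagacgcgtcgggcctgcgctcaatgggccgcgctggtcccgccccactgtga
The other motifs, searched on both strands, were the cyclic AMP response element TGACGTCA (1.85% of all promoters), the endoplasmic reticulum stress element (0.0769%) and the antioxidant response element core TGACNNNGC (13.3%). In the same order, 4.02%, 0.186% and 19.4% of tested genes with a promoter had a match. None of the 7 enzymes held either of the first pair, and only CBS held the antioxidant core, on the opposite strand 83 to 75 bases before a start. The absence of a match says only that these letters are not in this window.

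PCK2, the mitochondrial phosphoenolpyruvate carboxykinase, turns oxaloacetate into phosphoenolpyruvate, from which serine and other precursors can be made. It lies on the plus strand of chromosome 14 between 24094053 and 24110598 (ENSG00000100889). Its level was 9.74, 9.86, 10.5, 10.1 and 10.2 FPKM in the HPC libraries, against 3.58, 3.17, 2.92, 3.18 and 3.15 FPKM in the DMSO libraries. The groups were far apart, with a log2 fold change of 1.63 ± 0.045 (limma, adjusted p = 1.05e-12), 3.09-fold. Its cytosolic counterpart PCK1 was not analysed here.

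Around PCK2, 5 of 7 genes in the table were tested, with 3 higher, 2 lower and a median log2 fold change of 0.31. Over all tested genes, 42.9% were called higher and 44.8% lower. The malate dehydrogenases were lower: MDH1 of the cytosol was at 9.77 ± 0.335 FPKM with HPC and 15.9 ± 0.409 FPKM with DMSO (-0.70 ± 0.029, limma adjusted p = 6.81e-11), and MDH2 of mitochondria was at -0.26 ± 0.024 (limma adjusted p = 2.02e-07). The malic enzymes ME1 (0.40 ± 0.037, limma adjusted p = 2.34e-07) and ME2 (0.31 ± 0.032, limma adjusted p = 7.47e-07) were higher. On the values rescaled without mitochondrial genes, MDH2 was at -0.43, ME1 at 0.24 and ME2 at 0.14, each still called. PC, the pyruvate carboxylase that makes oxaloacetate, was below the filter at 0.283 ± 0.0245 FPKM with HPC and 1.1 ± 0.156 FPKM with DMSO (-1.64 without the filter, limma adjusted p = 2.11e-08).

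**Figure D3:**
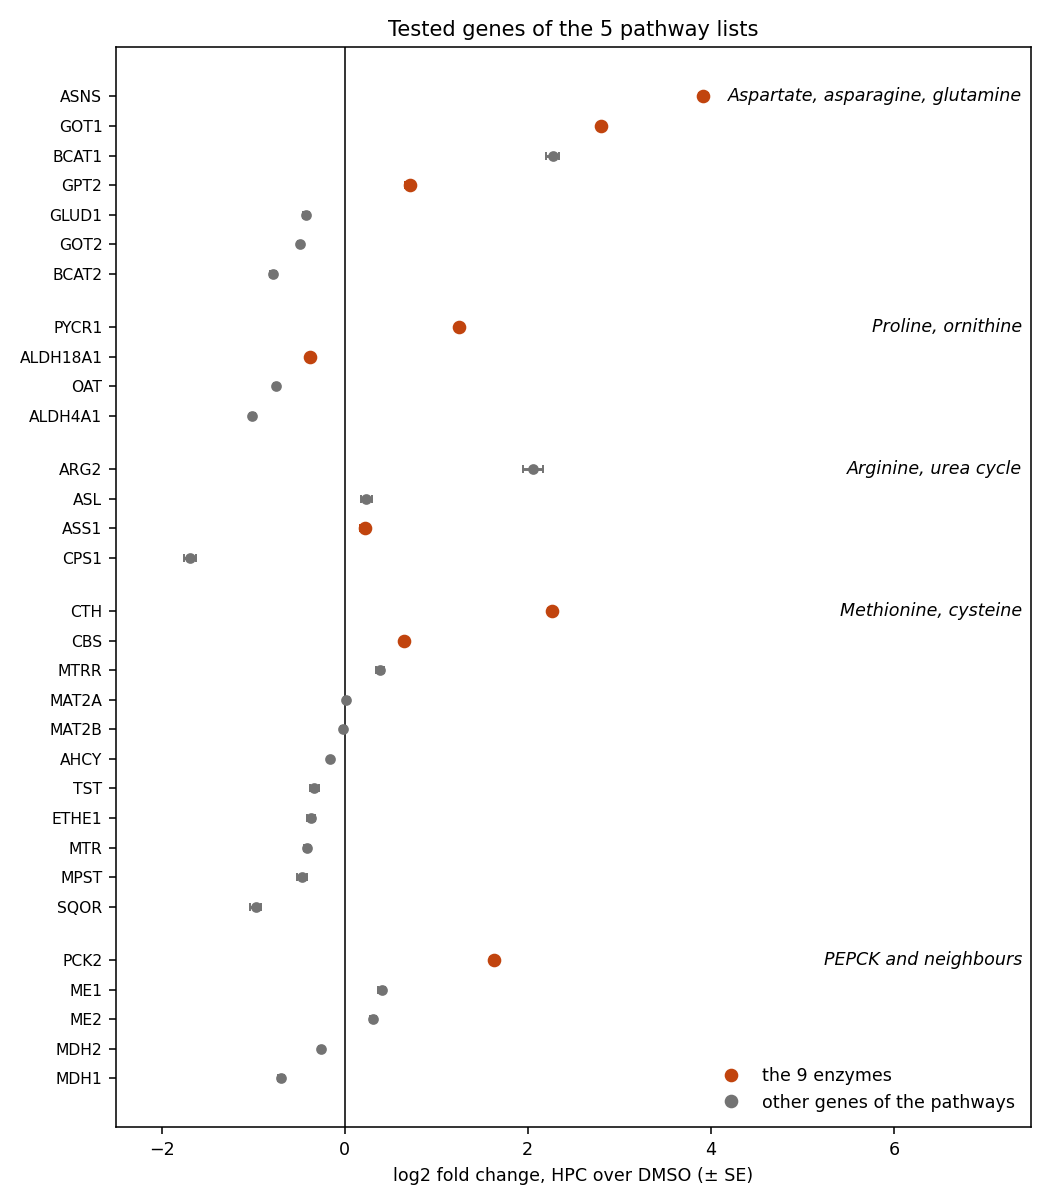
Log2 fold change, HPC over DMSO, with its SE for the tested genes reported from the 5 pathway lists; orange points are the 9 enzymes and gray points the other genes. Of the 22 gray points, 14 are called lower and 6 higher, beside 44.8% and 42.9% of all tested genes. Above 0 lie 8 of the 9 orange points. The gray counts include BCAT1 and CPS1, each of which passed the filter through 1 group alone.

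The other genes of the 5 lists were also counted without the 9 enzymes. Of 46 such genes, 43 were in the table and 22 were tested, of which 6 were higher, 14 were lower and 2 were not called. Over all tested genes, the shares were 42.9% higher and 44.8% lower. The median log2 fold change of these 22 genes was -0.35, beside 1.25 for the 9 enzymes and -0.01 for all tested genes. The lists, like the enzymes, were chosen with earlier results of these data known. BCAT1 passed the filter through its HPC libraries alone and CPS1 through its DMSO libraries alone. Over the 20 genes with at least 1 FPKM in every library, 5 were higher, 13 were lower and 2 were not called. The median of these 20 was -0.35. Among all 7872 tested genes at that level, 3464 were higher and 3374 lower, with a median of 0.01.

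The regulators of the amino acid response, as a list, were all higher: 8 of 8 tested, with a median log2 fold change of 3.32. Among all tested genes, 42.9% were called higher. DDIT3, ATF3 and NUPR1 depended on their HPC libraries to pass the filter. Over the 5 with at least 1 FPKM in every library, all 5 were higher, with a median of 2.43. Among all 7872 tested genes at that level, 3464 were higher. CEBPG, a C/EBP partner of ATF4, was at 30.2 ± 0.731 FPKM with HPC and 5.51 ± 0.221 FPKM with DMSO (2.43 ± 0.031, limma adjusted p = 1.65e-15). ATF5, a paralog of ATF4, was at 33.5 ± 3.35 FPKM with HPC and 15.7 ± 0.842 FPKM with DMSO (1.08 ± 0.062, limma adjusted p = 3.56e-09). NUPR1, a small stress-induced chromatin protein, was at 2.33 ± 0.349 FPKM with HPC and 0.108 ± 0.0325 FPKM with DMSO (3.55 ± 0.11, limma adjusted p = 4.99e-12).

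**Figure D4:**
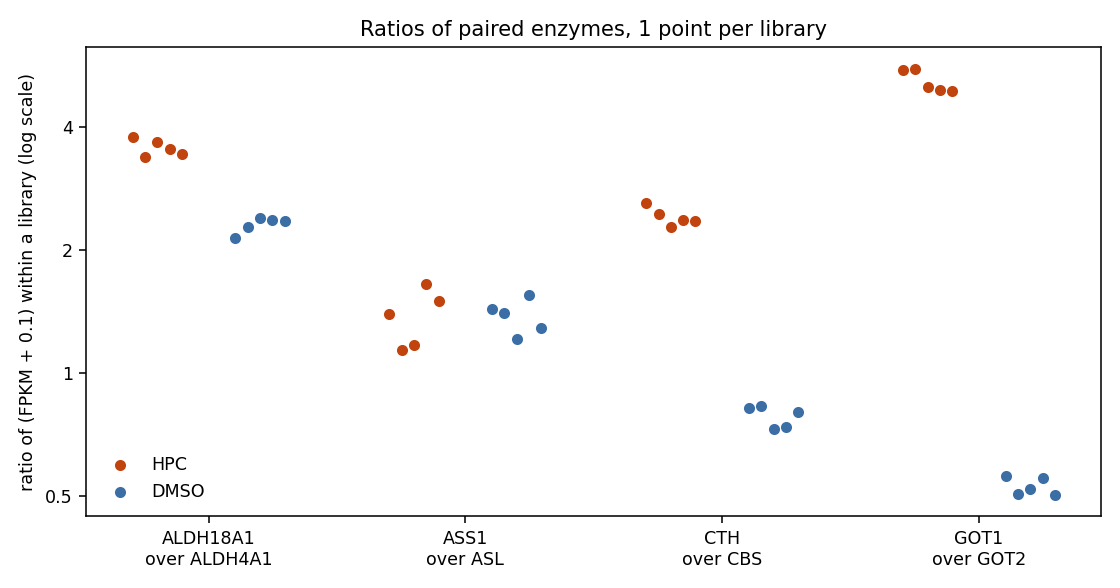
Ratio of FPKM, with 0.1 added to each gene, within each library for the 4 enzyme pairs that were tested, on a log axis, with HPC libraries in orange at the left and DMSO libraries in blue at the right of each pair. The HPC points stand apart from the DMSO points for GOT1 over GOT2, CTH over CBS and ALDH18A1 over ALDH4A1, and the points overlap for ASS1 over ASL.

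The order of the 9 enzymes by level depended on the length used to scale the reads. By FPKM as deposited, the order with HPC was GOT1, ASNS, CTH, ALDH18A1, PYCR1, PCK2, ASS1, CBS and GPT2, where PYCR1 overlapped PCK2 and each of the last 3 overlapped its neighbour. With DMSO it was GOT1, ALDH18A1, ASS1, PYCR1, CBS, GPT2, ASNS, PCK2 and CTH, where each of the last 4 overlapped its neighbour.

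The gene lengths implied by the FPKM and the recovered reads were 22829 bases for ASNS and 3342 bases for GOT1. The longest coding transcripts of GENCODE 29 have 2356 bases for ASNS and 2923 bases for GOT1. Over 15183 genes, the implied length had a median of 2.31 times the summed exons of GENCODE 29. With FPKM rescaled to the length of the longest coding transcript, ASNS came first with HPC, at 499 ± 16.3, ahead of GOT1 at 157 ± 6.44 and PYCR1 at 101 ± 5.98 (SD, n = 5 each). With DMSO on that scale, PYCR1 (42.0 ± 0.377) and ALDH18A1 (41.5 ± 1.61) overlapped at the top, GOT1 was seventh of the 9, and CTH was lowest, at 9.65 ± 0.64. A fold change of FPKM between HPC and DMSO does not depend on this length, except through the added 0.1 FPKM, whose weight is largest for low genes. The ratio of one gene to another does depend on it, so only the difference of a ratio between the groups is given a test. The filter of 1 FPKM depends on this length too, and so does which listed genes were tested. Per longest coding transcript, PYCR3 was at 1.86 ± 0.19 with HPC and 4.17 ± 0.224 with DMSO. In the same order, ASRGL1 was at 2.75 ± 0.249 and 4.07 ± 0.192, and PRODH at 0.549 ± 0.149 and 8.71 ± 1.38. GPT stayed below 1 in every library. The list counts thus hold for the deposited FPKM.

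The 9 enzymes differed among themselves in the size of their change. Over the 10 libraries, with each gene's log2(FPKM + 0.1) centred on its mean, the closest pair was CBS and GPT2 (Euclidean distance 0.212), followed by PYCR1 and PCK2 (0.657), and the farthest was ASNS and ALDH18A1 (6.82). By the same measure over all tested genes, the 3 nearest to ASNS were CCND2 (0.264), HMOX1 (0.296) and MT1X (0.344). CCND2 passed the filter through its HPC libraries alone, at 2.55 ± 0.179 FPKM with HPC and 0.0719 ± 0.0167 FPKM with DMSO, so its distance depends on the added 0.1 FPKM, which shrinks its change. The 3 nearest to GOT1 were SLC7A5 (0.249), GTPBP2 (0.253) and HSPA5 (0.255). The 3 nearest to CTH were BCL10 (0.151), KDM6B (0.207) and ERN1 (0.243), and those nearest to PCK2 were TMEM268 (0.125), TXNRD1 (0.163) and CARS1 (0.177). For PYCR1 they were ARHGAP29 (0.141), NBPF1 (0.147) and PELO (0.159), and for ALDH18A1 PRPF31 (0.0801), DIDO1 (0.0885) and ANAPC7 (0.104). ASS1 was nearest to BTF3L4 (0.173), SUPT20H (0.175) and MIGA1 (0.176), CBS to PLEKHA8 (0.0718), DFFA (0.0829) and UTP15 (0.0867), and GPT2 to WBP4 (0.154), COX19 (0.17) and PPFIBP1 (0.171). With 5 libraries in each of 2 groups, this distance reflects mainly the size of the difference between the groups.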

How the data were processed

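Poly(A) RNA of 10 libraries was sequenced. Per the labels' protocols, RNA was extracted with TRIzol, selected with oligo(dT) beads, reverse-transcribed with random primers, made into libraries and read from both ends on a NovaSeq. The tools named, per the submitters' processing notes, are STAR 2.7.7a, fastp 0.23.2 and edgeR, beside the build GRCh38.p13, without their roles. For the counter, annotation, filters and strandedness nothing is given in the sources used here.

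FPKM for 16734 genes were deposited by the authors; 344 genes without a symbol were named from a reference table by their ID. For all 15208 genes above 0 in at least 3 libraries, whole reads were recovered from the FPKM steps, within 0.0001 of a read; for the other 1526 the read number is a lower limit. Implied gene lengths assume that the FPKM were scaled to the sum of the recovered reads. Libraries of a group differed from each other by more than counting noise (chi-square per degree of freedom 12 to 25.7), so none were taken for copies.

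The 9150 genes that reached 1 FPKM in 5 or more libraries were tested on log2(FPKM + 0.1), a scale that understates the change of low genes, in 1 limma fit (3.58.1, R 4.3.3; two-sided, trend and robust options, Benjamini-Hochberg adjustment at 0.05). Ratios of enzyme pairs and library measures were compared with exact two-sided permutation tests over the 252 assignments of 10 libraries to 5 and 5. Alternatives changed the pseudocount, filter, scaling, test, block and libraries; voom on the recovered reads was among them. Sums of CBS and its copy, levels per longest coding transcript, and list counts over genes with at least 1 FPKM in every library were added after the data were seen. The read recovery and the limma fit were checked on simulated data. The simulation for limma changed few genes and did not rescale libraries, so it did not check the scaling. Coordinates are those of GENCODE 29 on GRCh38; promoters, 250 bases before to 50 after a start, are from RefSeq (GRCh38.p14), which held 7 of the 9 enzymes and not PYCR1 or GPT2. Further tools were pandas 2.3.3, NumPy 2.4.6 and matplotlib 3.10.9, with SciPy 1.17.1, under Python 3.11.15.

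All 9 enzymes are named whatever their values, together with genes of 6 lists, some of whose planned genes are not reported or counted here, and the 3 nearest genes of each enzyme. The enzymes, lists and tests were chosen with earlier results of these data known.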

Additional observations from a re-analysis of the deposited data

Results flagged for a closer look

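Of 86 groups of 5 values examined, 1 was flagged. MDH1 stood at 9.18 FPKM in HPC replicate 2, while the other 4 HPC libraries lay between 9.81 and 10.0 FPKM; the gap was 0.753 of the group's range, above the critical value of 0.71. Chance flags about 1 in 20 such groups. All 5 HPC values were below all DMSO values.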

How the results depend on the processing

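Of 180 values of the 9 enzymes under alternatives, 179 kept their direction and their side of the threshold; the exception was ASS1 on the scaling without mitochondrial genes (0.05, adjusted p = 0.346). The ranges of log2 fold change were 3.61 to 3.98 for ASNS, 2.64 to 2.83 for GOT1, 1.99 to 2.32 for CTH, 1.40 to 1.68 for PCK2, 1.08 to 1.29 for PYCR1, 0.54 to 0.75 for GPT2, 0.48 to 0.68 for CBS, 0.05 to 0.25 for ASS1 and -0.55 to -0.36 for ALDH18A1. GPT2 gave no value under a filter of 5 FPKM. The scaling without mitochondrial genes moved the median of all tested genes from -0.01 to -0.18 and the lower share of calls from 51.1% to 62.9%; it left 1 higher gene in the arginine list instead of 3. On it MAT2A was at -0.15, and under quantile scaling at -0.16 (limma adjusted p = 6.98e-05), both below 0; AHCY was at -0.33 under both, and TST at -0.50 on the first. A pseudocount of 1 FPKM shrank BCAT1 to 1.30, CPS1 to -0.80 and NUPR1 to 1.58. With no filter, 5 proline genes were lower instead of 3, 3 arginine genes instead of 1 and 4 genes around PCK2 instead of 2. With 5 FPKM, 2 aspartate genes were higher instead of 4, 0 arginine genes were lower instead of 1 and 2 methionine genes instead of 6, and of 4240 tested genes 1969 were higher and 1836 lower, against 3922 and 4099 of 9150. The difference in recovered reads, HPC minus DMSO, ran from -7310000 to -3960000 when single libraries were left out. The filters change which genes are tested; for the scalings the cause was not tested.

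The groups share replicate numbers, but same-numbered libraries deviated together only weakly (r of -0.0593, 0.066, 0.199, 0.0165 and 0.136), so the numbers were not taken to pair them. With the replicate block, 3892 genes were higher and 4077 lower, and no call among the 9 enzymes changed. For the ratios, an exact sign-flip test over 5 blocks cannot pass the threshold; ALDH18A1 over ALDH4A1 (0.63), CTH over CBS (1.62) and GOT1 over GOT2 (3.29) each gave an adjusted p of 0.0833.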
